A study of Mus musculus with 6 samples.

Results

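The genes described here are 44 adipocyte and lipid storage genes, chosen by symbol from 55484 genes measured in mouse femoral bone. They code for adipokines, fatty acid uptake and binding proteins, adipogenic transcription factors, lipid droplet proteins and the enzymes of triglyceride synthesis, fatty acid synthesis and lipolysis. All 44 symbols were found in the deposited tables, 38 were tested for a difference by the authors, and 6 were not (Lep, Aqp7, Cidea, Pnpla3, Adrb3 and Ucp1). The bones came from male wild-type C57BL/6 mice that were 12 weeks old. From 6 weeks of age all of them ate normal chow and lived alone in a cage for 6 weeks. In the sedentary group (ND/SED, 3 mice) the cage had no wheel, and in the wheel running group (ND/WCR, 3 mice) a wheel could be used freely. The study's title concerns the response of osteocytes, the cells embedded in bone, to mechanical load. The sources used here give neither the distance run nor how marrow, muscle and periosteum were handled at dissection.

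White adipocytes store energy as triglyceride in a large lipid droplet and secrete hormones such as adiponectin. The nuclear receptor PPARG and the C/EBP factors drive their differentiation. Fatty acids reach the cell through lipoprotein lipase, transporters and binding proteins, or are made from acetyl-CoA by the lipogenic enzymes. They are esterified to triglyceride, held under a coat of perilipins, and released again by a chain of lipases. In bone, adipocytes lie in the marrow, and marrow stromal cells also transcribe adiponectin and several other genes of the set, as do muscle, macrophages and endothelium for the fatty acid handling genes.

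Each gene has 1 pooled value per group, in FPKM, a read density corrected for transcript length and library size. The lower and upper bound of the authors' interval follow in brackets. The level of that interval is not stated, and no spread between mice can be given. A log2 difference is that of FPKM + 0.1 in running against sedentary mice, and for low genes it is smaller than the log2 ratio of FPKM alone. Genes are called where the q of the authors' deposited table lies under 0.05. The lowest values show that 1 fragment in the deepest library was worth 0.0203 FPKM in the sedentary and 0.0192 FPKM in the running group for a transcript of 1 kb. If each value averages 3 libraries, the deepest then held about 16400000 and 17300000 fragments. Bone genes were abundant, with Dmp1 of osteocytes at 145 and 169 FPKM. Markers of other cell types stood higher still. S100a8 of neutrophils was at 20105 and 16793 FPKM, Hbb-bt of erythroid cells at 4381 and 4869.6 FPKM, and Tnnt3 of skeletal muscle at 366 and 445 FPKM.

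Adiponectin, adipsin, the fatty acid carrier FABP4 and the lipogenic regulator THRSP were encoded by the only members called in either direction, and all 4 were higher in the running mice. That is 4 of 38 tested members higher and 0 lower, where 0.445% of all 15508 tested genes were called higher and 0.497% lower (0.941% in either direction). Of the tested members 30 had a log2 difference above 0, against 48.2% of all tested genes. The median log2 difference was 0.15 over the 38 members and -0.01 over all tested genes. Over the 31 members with a mean of at least 5 FPKM it was 0.0941. At an unadjusted p under 0.05 in the authors' deposited table, 8 members were higher and 0 lower, with 3.42% and 2.22% of all tested genes. The members were chosen with earlier results of these data known, so counts beside shares describe the list and are not a test. In whole bone, more cells of a type and more RNA per cell cannot be told apart.

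**Figure D1:**
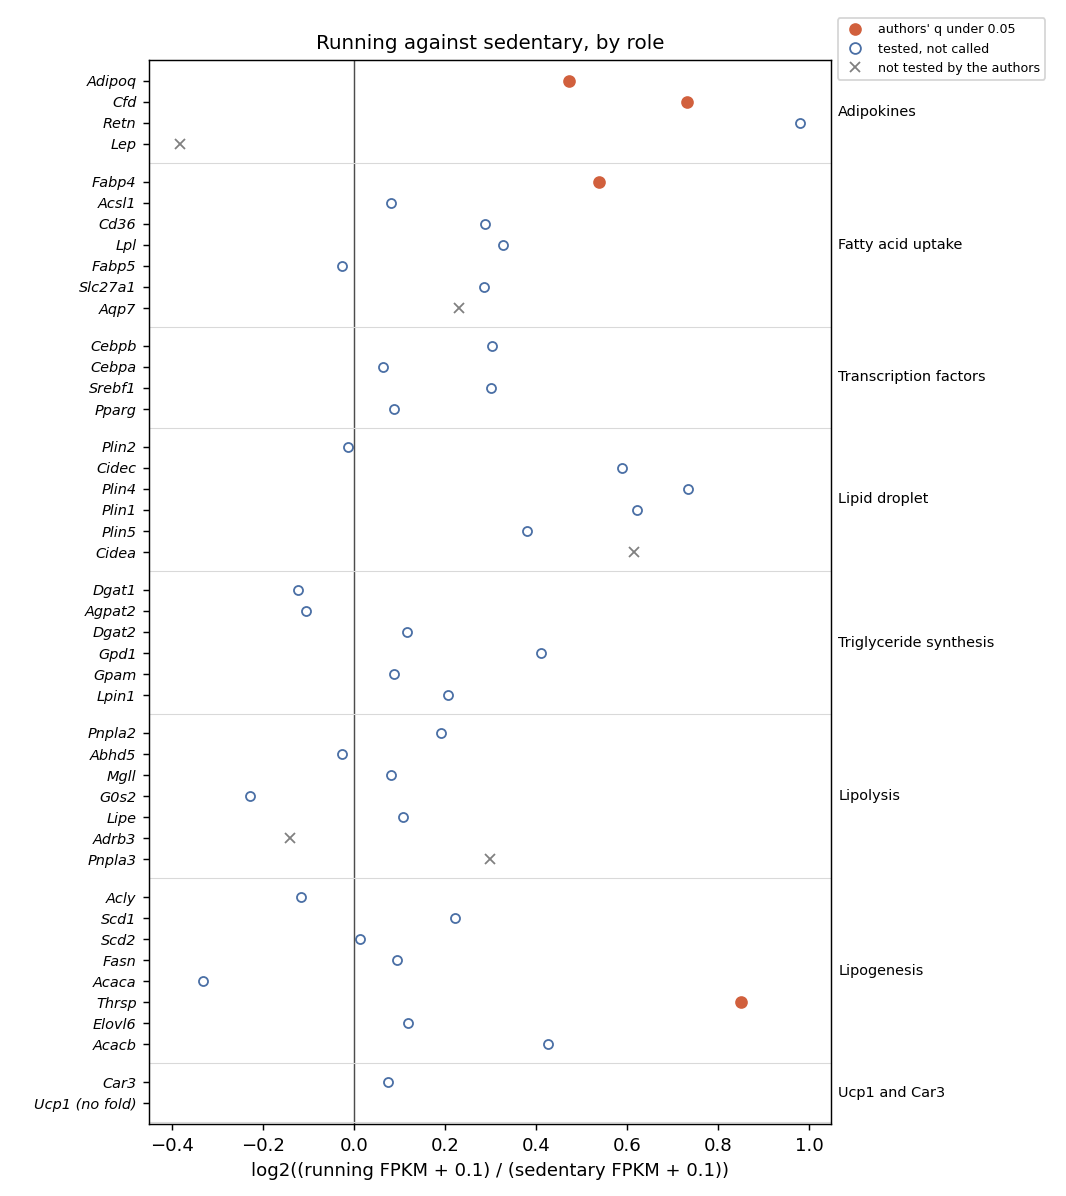
Log2 difference of each gene, for running against sedentary mice with 0.1 added to each FPKM, and genes grouped by role. Filled points are called by the authors, open points are tested and not called, crosses were not tested, and Ucp1 has no point because it is listed at 0 in the sedentary group. The 4 called genes lie between 0.47 and 0.85.

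Among the adipokines, adiponectin and adipsin transcripts were higher in the running mice, by 1.39 and 1.66 times. Adipoq (ENSMUSG00000022878; GRCm38 chromosome 16, 23146536 to 23158028, plus strand) encodes adiponectin, an insulin-sensitising hormone. It stood at 40.2 FPKM (32.0 to 48.4) in sedentary and 55.8 FPKM (44.9 to 66.7) in running mice, a log2 difference of 0.47. The intervals overlapped slightly, and q in the authors' deposited table was 0.00718. Cfd (chromosome 10, 79890853 to 79892655, plus strand) encodes adipsin, the complement factor D protease secreted by fat. It rose from 39.0 FPKM (29.4 to 48.5) to 64.8 FPKM (50.8 to 78.7), a log2 difference of 0.73, with intervals apart and the same q of 0.00718 in the authors' deposited table. That q is the smallest the table holds and is shared by 108 genes, so it does not rank them. Levels of the adipokines were far apart. Retn, which encodes resistin, had 1.26 FPKM (0.369 to 2.16) in sedentary and 2.59 FPKM (1.24 to 3.94) in running mice. Its log2 difference of 0.98 was the highest of the 38 members, yet q in the authors' deposited table was 0.338. Lep, which encodes leptin, was barely seen, at 0.160 FPKM (0 to 0.553) and 0.0995 FPKM (0 to 0.424), at most about 24 and 16 fragments over 3 libraries. The level of Lep was 0.00398 times that of Adipoq in sedentary and 0.00178 times in running mice.

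The upstream sequence of the called genes is shown because they were higher together, with that of Plin1, the droplet coat gene, for comparison. RefSeq promoters on GRCm38.p6 were matched by symbol for 33 of the 44 genes, and Fabp4 is not among them. The 250 bases before the RefSeq start were searched on both strands. The C/EBP element was TTNNGCAA. The nuclear receptor half-site was AGGTCA, with its direct repeat at a spacer of 1 base (DR1, to which PPARG with RXR binds). The sterol element was searched as TCACNCCAC, the E-box as CACGTG, and for the TATA box the letters were TATAAA. The DR1 is built from the half-site, so each DR1 match also holds that motif, and no other motif contains another. The NF-Y element, CCAAT, was added after the sequences had been seen. Capitals mark matches, and bases that GENCODE annotates as exon were left out of the print, 180 for Thrsp and 127 for Plin1. The windows run 5′ to 3′ on the strand of the gene: Adipoq chr16:23146286-23146535, Cfd chr10:79890603-79890852, Thrsp chr7:97417731-97417800 on the minus strand and Plin1 chr7:79732904-79733026 on the minus strand.
Adipoq: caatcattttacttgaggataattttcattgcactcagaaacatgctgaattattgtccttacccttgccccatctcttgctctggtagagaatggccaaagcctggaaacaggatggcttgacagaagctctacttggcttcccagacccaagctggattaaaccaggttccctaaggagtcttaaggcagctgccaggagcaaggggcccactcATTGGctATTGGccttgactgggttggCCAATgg
Cfd: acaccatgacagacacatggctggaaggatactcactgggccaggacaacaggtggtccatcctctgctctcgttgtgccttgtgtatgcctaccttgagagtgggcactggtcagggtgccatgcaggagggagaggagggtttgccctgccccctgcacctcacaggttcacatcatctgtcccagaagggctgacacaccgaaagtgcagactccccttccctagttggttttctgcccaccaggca
Thrsp: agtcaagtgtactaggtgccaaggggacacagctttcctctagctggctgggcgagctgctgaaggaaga
Plin1: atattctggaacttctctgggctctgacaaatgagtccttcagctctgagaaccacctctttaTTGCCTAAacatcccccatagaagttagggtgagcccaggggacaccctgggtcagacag

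The Adipoq window held CCAAT 3 times, once as written and 2 times on the other strand, within 34 bases of the start. Thrsp held it 2 times in the part not printed, and the Cfd window held none of the motifs. Among all 32851 RefSeq promoters 33.8% had a CCAAT, and 37% of the 46 promoters of these genes did. Plin1 had 2 matches to the C/EBP element, beginning 187 and 58 bases before the start, the second in the part not printed. A C/EBP match was present in 9.56% of all promoters and in 8.7% of the 46, those of Lep, Pparg, Plin1 and Cidec. The AGGTCA half-site was present in 14% of all promoters and in 28.3% of the 46, in 11 genes including those of Cd36, Plin2, Plin5 and Ucp1. No member had a DR1 in this window, which 0.0335% of all promoters held. The sterol element was found in 1 gene (Acsl1; 346 of all promoters), the E-box in 3 (Slc27a1, Lipe and Mgll; 6.52% of the 46 against 6.02% of all promoters) and the TATA box in 3 (Pparg, Cebpa and Acacb; 6.52% against 12.4%). These matches describe letters only.

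Of the genes for fatty acid uptake and binding, Fabp4 was called and the others were not. Fabp4 (chromosome 3, 10204088 to 10208576, minus strand) encodes the fatty acid carrier of adipocytes, which macrophages and capillary endothelium also make. It had the highest level of the 44 genes in both groups and rose from 219.7 FPKM (176 to 263) to 319 FPKM (258 to 380.4), 1.45 times and 0.54 on the log2 scale. The intervals overlapped slightly, with q of 0.00718 in the authors' deposited table. Its paralog Fabp5, on the same chromosome, stood at 29.5 FPKM (22.7 to 36.4) and 29.0 FPKM (22.2 to 35.8), so that the level of Fabp4 was 7.44 times that of Fabp5 in sedentary and 11 times in running mice. Against Adipoq the level of Fabp4 was 5.46 and 5.72 times as high.

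Lpl, Cd36, Slc27a1 and Acsl1 had higher values in the running mice without being called. Lpl, which encodes the lipase that frees fatty acids from lipoproteins, had 34.5 FPKM (28.1 to 40.9) and 43.4 FPKM (35.3 to 51.5), with q of 0.160 in the authors' deposited table. Cd36, a fatty acid translocase gene, had 53.1 FPKM (43.0 to 63.1) and 64.8 FPKM (53.0 to 76.7), with q of 0.358 in the authors' deposited table. The log2 differences were 0.33 for Lpl and 0.29 for Cd36, and the intervals overlapped for both. Slc27a1, which encodes the transporter FATP1, stood at 10.3 and 12.6 FPKM, with q of 0.936 in the authors' deposited table. Acsl1, whose product activates fatty acids with coenzyme A, stood at 55.2 and 58.5 FPKM. Its log2 difference was only 0.08, with q of 0.99966 in the authors' deposited table. Aqp7, the glycerol channel gene of adipocytes, was not tested and was near the limit of detection at 0.496 and 0.599 FPKM.

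No transcription factor gene of the set was called. Pparg, the master regulator of adipogenesis, had 11.2 FPKM (8.31 to 14) in sedentary and 11.9 FPKM (8.91 to 14.8) in running mice. The authors' intervals allow a ratio of running to sedentary from 0.636 to 1.78. Cebpa, which acts with PPARG and also in myeloid progenitors, stood at 31.5 FPKM (25.5 to 37.5) and 32.9 FPKM (26.6 to 39.2). The log2 differences of these 2 genes were 0.09 and 0.06. Cebpb, an early factor of adipogenesis and of inflammation, stood at 44.4 FPKM (27.4 to 61.3) and 54.8 FPKM (38.4 to 71.1). Srebf1, which encodes the lipogenic factor SREBP1, had 15.9 FPKM (7.11 to 24.6) and 19.6 FPKM (8.82 to 30.3), and its intervals were wide. Srebf1, Cebpb and Cebpa each overlap a tested gene on the opposite strand (Rai1, Tmem189 and Gm45091). The level of Adipoq was 3.60 times that of Pparg in sedentary and 4.70 times in running mice.

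**Figure D2:**
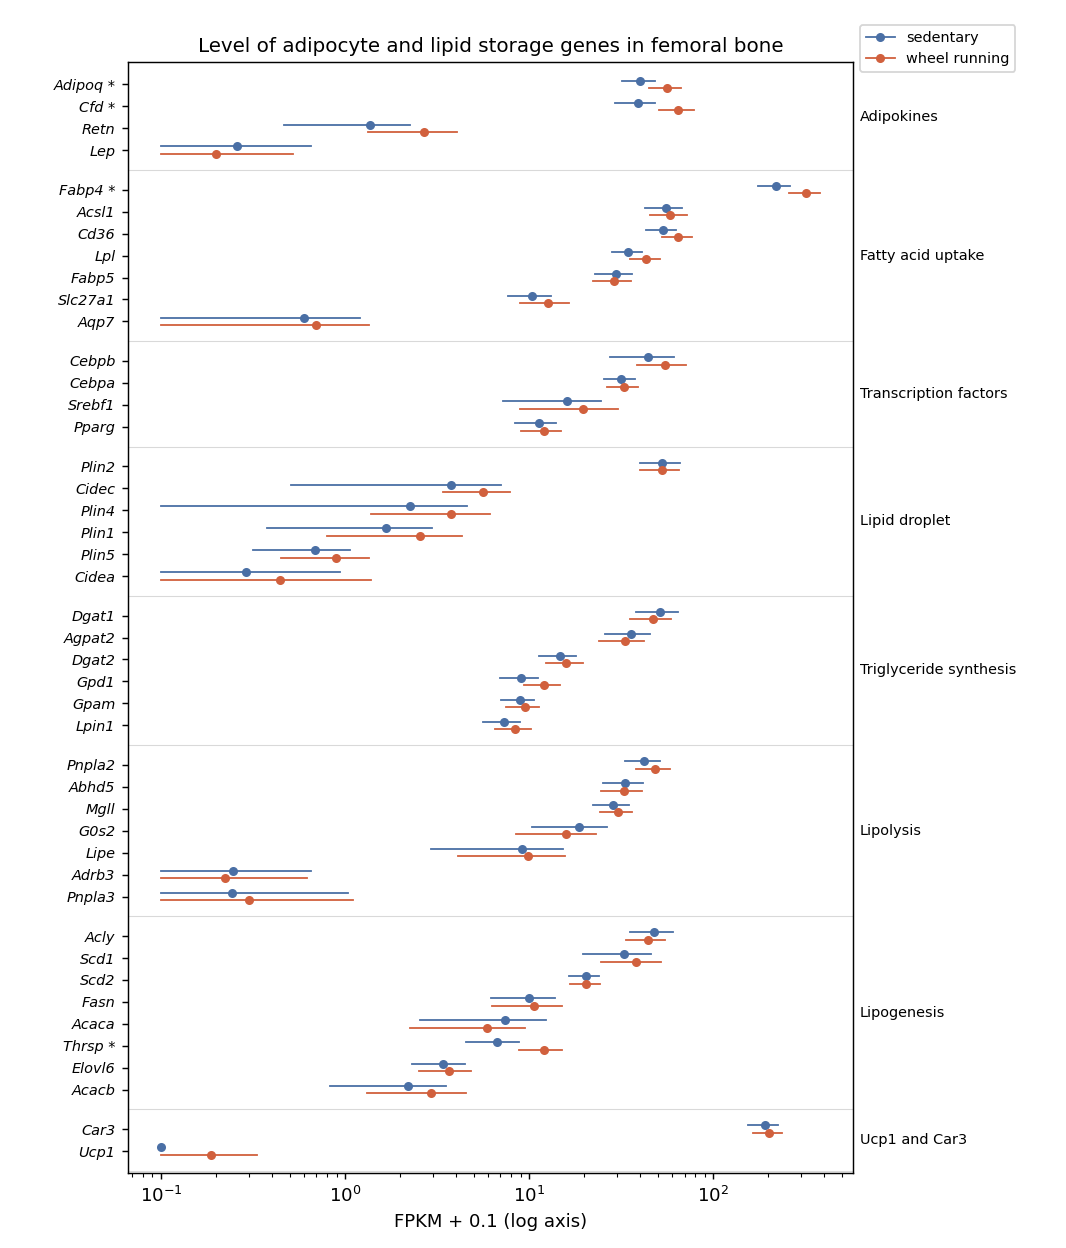
FPKM + 0.1 (log axis) of each gene in sedentary (blue) and running mice (orange), grouped by role. Points are the authors' pooled value per group, lines their interval, and stars mark the 4 called genes. Fabp4 and Car3 lie above 100 FPKM in both groups, and 7 genes lie under 1 FPKM.

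No lipid droplet gene was called. Plin1, Cidec and Plin4 had log2 differences above that of Adipoq at low levels, and Plin2 and Plin5 did not. Plin1, whose product coats the droplet of adipocytes and gates lipolysis, had 1.57 FPKM (0.279 to 2.86) and 2.47 FPKM (0.704 to 4.24), a log2 difference of 0.62. Cidec, whose product fuses droplets into a single large one, had 3.67 FPKM (0.407 to 6.93) and 5.56 FPKM (3.33 to 7.80), a log2 difference of 0.59. Plin4 had 2.17 FPKM (0 to 4.52) and 3.68 FPKM (1.28 to 6.07), a log2 difference of 0.73, and overlaps the tested gene Hdgfl2 on the opposite strand. For these 3 genes q in the authors' deposited table was 0.99966, and each pair of intervals overlapped broadly. Plin5, a perilipin of oxidative tissues, stood at 0.590 and 0.799 FPKM, and Cidea, typical of brown fat, at 0.189 and 0.343 FPKM.

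Plin2 differed from these in level. It encodes the perilipin found on droplets in most cell types and had 53.0 FPKM (39.9 to 66.1) in sedentary and 52.5 FPKM (39.9 to 65.1) in running mice. The level of Plin2 was 33.7 times that of Plin1 in sedentary and 21.2 times in running mice. The median log2 difference of the 5 tested droplet genes, 0.59, rested on genes under 10 FPKM. With a mean of at least 5 FPKM required, Plin2 alone was left, at -0.01.

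Of the genes of triglyceride synthesis none was called, and the log2 differences lay on both sides of 0. Gpd1, which makes the glycerol 3-phosphate backbone and is also abundant in muscle, stood at 8.97 FPKM (6.83 to 11.1) and 12.0 FPKM (9.29 to 14.6), with q of 0.143 in the authors' deposited table. That q was the smallest of the members not called. Gpam, whose product adds the first acyl chain, stood at 8.82 and 9.38 FPKM. Agpat2, whose product adds the second, stood at 35.6 and 33.1 FPKM and overlaps Egfl7 on the opposite strand. Lpin1, a phosphatidate phosphatase gene, stood at 7.19 and 8.32 FPKM. For the last step Dgat1 had 51.2 FPKM (38.2 to 64.1) and 47.0 FPKM (35.3 to 58.7), and Dgat2 had 14.6 FPKM (11.2 to 18.0) and 15.8 FPKM (12.2 to 19.5). The summed level of the 6 genes was 126 FPKM in both groups, and their median log2 difference was 0.10.

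Fatty acid synthesis genes held 1 call among 8. Thrsp (chromosome 7, 97412938 to 97417730, minus strand) encodes Spot 14, a small protein that promotes lipogenesis in fat, liver and mammary gland. It rose from 6.58 FPKM (4.43 to 8.73) to 11.9 FPKM (8.74 to 15.1), 1.81 times and 0.85 on the log2 scale, with q of 0.00718 in the authors' deposited table. The intervals were only just apart. The enzymes of the pathway did not pass the test. Acly, which makes cytosolic acetyl-CoA, had 47.9 and 44.2 FPKM. Acaca, which makes malonyl-CoA for synthesis, had 7.31 FPKM (2.45 to 12.2) and 5.79 FPKM (2.16 to 9.42), the lowest log2 difference of the tested members at -0.33. Acacb, whose malonyl-CoA restrains mitochondrial fatty acid import, had 2.09 FPKM (0.725 to 3.45) and 2.84 FPKM (1.21 to 4.46). Fasn, the fatty acid synthase gene, had 9.92 FPKM (6.14 to 13.7) and 10.6 FPKM (6.16 to 15.0). Of the desaturase genes, Scd1 stood at 32.8 FPKM (19.6 to 46.0) and 38.2 FPKM (24.6 to 51.9), and Scd2 at 20.2 FPKM (16.5 to 24.0) and 20.4 FPKM (16.6 to 24.2). Elovl6, an elongase gene, stood at 3.29 and 3.58 FPKM. The median log2 difference of the 8 genes was 0.11.

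Genes of lipolysis held no call among 5 tested. Pnpla2, which encodes the lipase ATGL of the first step, had 42.3 FPKM (33.2 to 51.4) and 48.3 FPKM (38.2 to 58.4). Lipe, which encodes hormone-sensitive lipase of the second step, had 9.04 FPKM (2.85 to 15.2) and 9.75 FPKM (4 to 15.5). Mgll, the monoglyceride lipase gene, had 28.5 FPKM (22.2 to 34.8) and 30.2 FPKM (24.1 to 36.3). All 3 lipase genes had overlapping intervals and log2 differences from 0.08 to 0.19. Abhd5, the activator of ATGL, stood at 33.3 and 32.7 FPKM, and G0s2, its inhibitor, at 18.5 FPKM (10.3 to 26.6) and 15.8 FPKM (8.40 to 23.1). G0s2 overlaps the tested gene Lamb3 on the opposite strand. The level of Abhd5 was 1.80 times that of G0s2 in sedentary and 2.07 times in running mice. Adrb3, the adrenergic receptor gene of adipocytes, was at 0.146 and 0.123 FPKM and Pnpla3 at 0.145 and 0.201 FPKM, both untested. The intervals of both genes reached 0.

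Ucp1, the uncoupling protein gene that defines brown fat, was listed at 0 in the sedentary and at 0.0874 FPKM (0 to 0.232) in the running group, at most about 6 fragments over 3 libraries. Car3, a carbonic anhydrase gene of adipocytes and slow muscle, had the second highest level of the set. It stood at 191 FPKM (155 to 226) and 201 FPKM (164 to 238) and was not called, with a log2 difference of 0.08.

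Fabp4 and Car3 stood above the other genes in level, with intervals apart from the gene of rank 3 in both groups. In the sedentary group 2 genes lay at 100 FPKM or more, 22 from 10 to 100, 13 from 1 to 10 and 7 under 1. In the running group these numbers were 2, 25, 10 and 7. Fabp4 and Car3 led in both groups, and their intervals overlapped in the sedentary group and not in the running group. Of 43 neighbouring pairs in the order, 42 had overlapping intervals in the sedentary and 41 in the running group, so the ranks between 3 and 44 do not separate neighbours. Adipoq ranked 10 in sedentary and 6 in running mice.

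Intervals were wider for the less abundant members. For the 26 tested members with a mean of at least 10 FPKM the median half-width was 24.2% of the value in sedentary and 23.3% in running mice. In the 12 members under 10 FPKM it was 65.8% and 54.3%. Adipoq had the lowest log2 difference of the called members, so every called member reaches that bound by construction. Log2 differences at least as high as that of Adipoq were seen in 3 members of the first kind, all called (Adipoq, Cfd and Fabp4). They were also seen in 5 of the second (Retn, Plin1, Plin4, Cidec and Thrsp), of which Thrsp was called. Of all tested genes 4.42% had a difference that high. For Plin1, Plin4 and Cidec the intervals allow ratios of running to sedentary down to 0.246, 0.284 and 0.480, so a fall as well as a rise. The intervals of Retn (down to 0.573) and of the called Adipoq (0.927) and Fabp4 (0.979) allow a fall too. Those of the called Cfd and Thrsp do not.

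**Figure D3:**
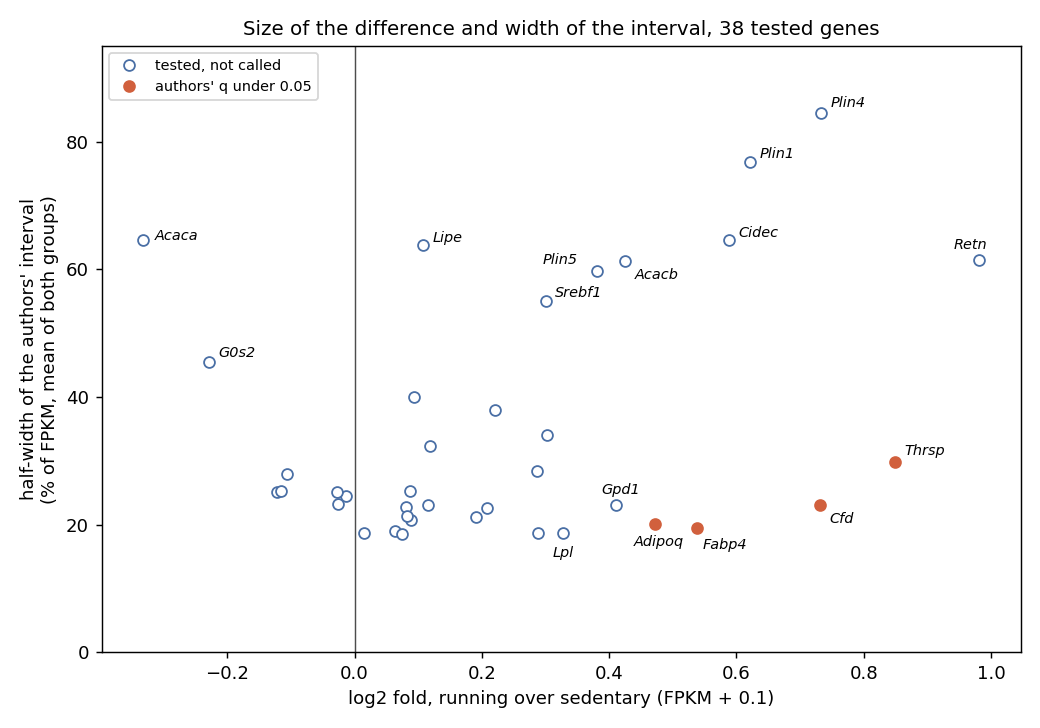
Half-width of the authors' interval, in % of the FPKM and averaged over both groups, against the log2 difference of the 38 tested genes. Filled points are called. Plin1, Plin4, Cidec and Retn lie right of Adipoq with half-widths above 60%, and the 4 called genes lie at 30% or lower.

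Further genes of fat biology were read from lists, none of whose members were called lower. Of 21 tested genes listed as other genes of adipocytes, 2 were called higher, with a list median of 0.26. Pck1, whose product makes glycerol precursors in fat, rose from 2.40 FPKM (1.48 to 3.33) to 4.95 FPKM (3.50 to 6.39), and Cyp2e1, a cytochrome P450 gene, from 5.18 FPKM (3.47 to 6.88) to 11.8 FPKM (8.78 to 14.8), both with intervals apart. Hp (496 and 464 FPKM) and Prkar2b (72.1 and 67.1 FPKM) were not called. Both stood above Adipoq in value in each group, and which cells gave their transcripts was not tested. Of 17 tested regulators of adipogenesis, Klf15 was called, from 2.01 FPKM (1.23 to 2.80) to 3.54 FPKM (2.39 to 4.69), while the list median was -0.03. Ncor1, a corepressor gene, was not called (80.3 and 74.6 FPKM).

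A list of genes of fatty acid supply, handling and their regulators gave 1 call among 22 tested. It was Gpihbp1, which encodes the endothelial anchor of lipoprotein lipase, from 22 FPKM (16.1 to 27.9) to 32.6 FPKM (24.3 to 41.0), with q of 0.0332 in the authors' deposited table. Fabp3 (50.4 and 60.0 FPKM) and Acsl5 (44 and 44.6 FPKM) were not called, and the list median was 0.09. Among 7 tested receptors of adipokines and related hormones, the leptin receptor gene Lepr, which also marks marrow stroma, rose from 27.9 FPKM (20.3 to 35.5) to 39.7 FPKM (28.4 to 51.0), with q of 0.0478 in the authors' deposited table. The adiponectin receptor genes stood at 99.7 and 102 FPKM (Adipor1) and at 34.7 and 33.7 FPKM (Adipor2). None of 17 tested sterol synthesis genes was called by the authors' test, with 0 at an unadjusted p under 0.05 and a median of -0.02, and Insig2 and Srebf2 led that list in level at 33.6 and 26.3 FPKM in sedentary and 33.1 and 26.1 FPKM in running mice. None of 7 tested beige and brown fat genes was called, with 1 at an unadjusted p under 0.05 and a median of -0.03. The highest of these in level were Cox8b (39.1 and 46.9 FPKM) and Cox7a1 (31.7 and 43.4 FPKM), both also expressed in muscle. Shares of 0.445% and 0.497% of all tested genes, called higher and lower, apply here too.

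Some markers of other cell types were called higher and none lower, where 0.445% of all tested genes were called higher and 0.497% lower. Of 8 adipocyte markers (7 tested, Lep not) 3 were called higher, all 7 tested lay above 0 in log2 difference, and none was at 0 FPKM. The summed level of the 8 was 324 FPKM in sedentary and 469 FPKM in running mice, of which Fabp4 alone held 219.7 and 319 FPKM. The uncalled Lipe and Pparg had log2 differences of 0.11 and 0.09, and the uncalled Plin1 and Cidec of 0.62 and 0.59. All of these markers belong to the 44 genes. Marrow stroma markers had 2 of 11 called higher (Lepr and Gas6), all 11 above 0 in log2 difference, and sums of 1519 and 1739.7 FPKM. In skeletal muscle markers 3 of 12 were called higher (Myh1, Myh2 and Tcap), with sums of 2007 and 2414 FPKM. Tendon and fibroblast markers had 3 of 9 called higher (Fmod, Thbs4 and Tnxb), with sums of 703 and 808 FPKM. Of 9 osteocyte and osteoblast markers 2 were called higher (Sost and Mepe), with sums of 4183 and 4427 FPKM. As in stroma, all 12 muscle and all 9 bone markers lay above 0 in log2 difference, and 8 of 9 tendon markers did.

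Macrophage markers had 1 of 9 called higher (Cd163) and 8 above 0 in log2 difference, with sums of 667 and 754 FPKM. Vcam1, at 171 and 213 FPKM and not called, is counted both in this list and in that of marrow stroma. Endothelial markers had 0 of 8 called, 7 above 0 in log2 difference and sums of 121 and 133 FPKM. Of these markers 1 had an unadjusted p under 0.05 in the authors' deposited table. Neutrophil markers had 0 of 10 called, all 10 below 0 in log2 difference, and sums of 54258 and 46237 FPKM. In the erythroid list 0 of 7 matched markers were called, with sums of 8855 and 9368 FPKM, and in neither of these lists did a gene reach an unadjusted p under 0.05 in the authors' deposited table. No marker of these lists was at 0. The median log2 difference was 0.54 for adipocyte, 0.28 for muscle, 0.27 for tendon, 0.24 for bone, 0.21 for stroma, 0.18 for macrophage, 0.15 for endothelial, 0.03 for erythroid and -0.15 for neutrophil markers. The part of the other cell types in the differences of Adipoq, Cfd, Fabp4 and Thrsp was not tested.

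**Figure D4:**
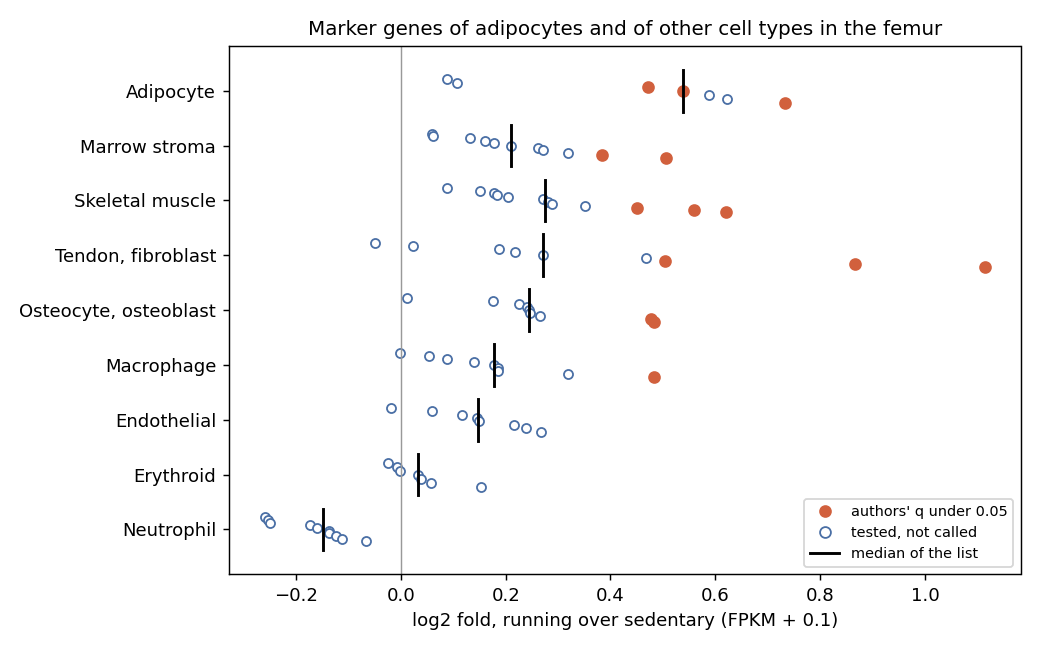
Log2 difference of tested marker genes, for running against sedentary mice with 0.1 added to each FPKM, by cell type. Filled points are called, open points are not, and black lines are list medians. The adipocyte median (0.54) is the highest, the neutrophil median (-0.15) the lowest, and the other lists lie between.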

How the data were processed

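Polyadenylated RNA of femoral bone was made into strand-marking libraries with the NEBNext Ultra Directional kit after TRIzol extraction, per the labels' protocols. Tools listed without roles in the submitters' processing notes are Cufflinks 2.2.1, HISAT2 2.2.1, SAMtools 1.10 and Trimmomatic 0.39, with the build GRCm38. The sources used here do not say whether counting used strand, so a gene and its antisense partner could share fragments; no called member overlaps a tested gene.

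The authors deposited 1 FPKM per group with interval bounds and, per gene, the log2 fold, the statistic of their test (a score), a p-value and a q-value. The test is that of the authors, over 3 mice a group per the study's design text, and Benjamini-Hochberg adjustment of the deposited p gave the deposited q over the 15508 tested genes within 5.21e-07. From these values log2 folds (pseudocount 0.1), list counts and medians were computed with Python 3.11.15, pandas 2.3.3 and numpy 2.4.6. Only the log2 fold and the Benjamini-Hochberg adjustment were checked on simulated data. Of 221 listed symbols, 1 (Ahsp) had no match.

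All 44 members are named. In the lists of further fat genes, called genes and at most 2 uncalled genes of highest mean FPKM are named (1 is not reported here), and in the cell type lists the called genes. Members and lists were chosen with earlier results of these data known. Coordinates are those of GENCODE M21 on GRCm38 and promoters those of RefSeq. The alternatives tried were other q thresholds, pseudocounts, scalings, filters on level, and stricter calls. The planned comparison of protein sequences was not run.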

Additional observations from a re-analysis of the deposited data

How the results depend on the processing

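No paired analysis was possible because each group is deposited as 1 pooled FPKM without replicate numbers. Leaving out single replicates was not run for the same reason, and how far 1 mouse carries a call is unknown. The 4 called members were the same genes with q under 0.01, with q under 0.1, with q recomputed over genes of at least 1 FPKM and with the deposited statistic past the bound of a normal test at 0.05, all of which reuse the authors' deposited test. Calls with intervals apart numbered 2 (Cfd and Thrsp), where 0.123% of all tested genes were called higher with intervals apart. That demand is stricter by construction. A minimum log2 difference of 0.5 left 3, and the share of all tested genes at that minimum was not computed. Over the pseudocounts and scalings the log2 difference of Adipoq ranged from 0.46 to 0.52, of Cfd from 0.72 to 0.78, of Fabp4 from 0.54 to 0.58 and of Thrsp from 0.77 to 0.89. Of 172 alternative member differences 169 kept their sign. That count says little, because a change of pseudocount cannot turn a sign. Both scalings shifted running values upward, so only differences just under 0 could turn. Rescaling to the same total FPKM shifted running against sedentary FPKM by 0.04 on the log2 scale (by less in low genes, through the pseudocount) and turned Fabp5 to 0.0163, Plin2 to 0.0295 and Abhd5 to 0.0157, none of them called. The median of the droplet genes turned to -0.0132 with a mean of at least 5 FPKM, since only Plin2 was left.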

Other observations

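None of the tested genes next to the called members was called, where 0.941% of all tested genes were called in either direction. At that share no call is the likely count among so few genes, so it does not set the called members apart. Within 100 kb of Cfd lie 16 tested genes, with log2 differences from -0.69 to 0.22. The nearest upstream is Elane, the neutrophil elastase gene, 2.64 kb away, which stood at 715 FPKM in sedentary and 650.0 FPKM in running mice. Prtn3, which encodes proteinase 3 of the same granules, lies 7.68 kb away and stood at 460.2 and 405 FPKM. Around Adipoq 4 tested genes had log2 differences from -0.05 to -0.00035, and around Thrsp 6 tested genes had differences from -0.25 to 0.15. No tested gene lies within 100 kb of Fabp4.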
